A study of Mus musculus with 12 samples.

Results

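The NR4A, IER and ZFP36 early response genes examined here were 10 of the 33641 genes listed in every heart sample, chosen by symbol: Nr4a1, Nr4a2, Nr4a3, Ier2, Ier3, Ier5, Zfp36, Zfp36l1, Zfp36l2 and Csrnp1. Of the listed genes, 22948 were above 0 in at least 1 sample and 12526 reached a mean of 0.5 TPM (transcripts per 1000000, a level scaled for transcript length and for the sample total) and were tested. All 10 early response genes passed that filter on the mean over the 12 samples.

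RNA was sequenced from left ventricles (LV) and right ventricles (RV) of humanized mice, in which the coding sequence of human phospholamban had been placed in the endogenous gene, so that the control mice carried the human sequence too. Phospholamban is the small membrane protein that restrains the calcium pump of the sarcoplasmic reticulum, and the mutant form R14del-PLN, carried in the heterozygous state per the study's methods, lacks 1 arginine. The 4 groups of 3 samples were LV WT-PLN, RV WT-PLN, LV R14del-PLN and RV R14del-PLN (titled KO in the labels), all from mice of 12 to 14 weeks with the strain given as C57BL/6J. Per the study's methods the mice were males of a hybrid line, derived from chimeric males bred to Sox2-Cre mice and thus to a Cre active in the early embryo. The comparisons ask whether the mutant heart differs from the humanized control in each ventricle and whether the ventricles differ from each other.

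Immediate early genes are transcribed within minutes of a stimulus, without new protein synthesis, from promoters on which factors such as CREB, SRF and MEF2 are already poised, and their messenger RNAs decay quickly. In the heart they respond to adrenergic drive, calcium, stretch and injury. The NR4A proteins are orphan nuclear receptors, the ZFP36 proteins bind AU-rich elements in messenger RNAs and bring in the deadenylase complex, and the IER and CSRNP1 proteins are short-lived nuclear or signalling regulators.

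Regulatory sequence of the NR4A promoters is shown because the 3 genes share a feature that the choice of genes did not use. In RefSeq (GRCm38.p6), 8 of the 10 genes had a promoter entry of 300 bases around an annotated start. The core of the cAMP response element, TGACG, to which CREB binds, was counted on both strands. Nr4a1, Nr4a2 and Nr4a3 each held 4 of them, and 0.231% of all 32851 promoter windows held 4 or more, while 20.8% held at least 1. These shares are over all windows, which were not matched for base composition. In the sequences below, given 5′ to 3′ on the gene's strand, capitals mark the core or its reverse complement.

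Nr4a1, chr15:101266596-101266895, plus strand: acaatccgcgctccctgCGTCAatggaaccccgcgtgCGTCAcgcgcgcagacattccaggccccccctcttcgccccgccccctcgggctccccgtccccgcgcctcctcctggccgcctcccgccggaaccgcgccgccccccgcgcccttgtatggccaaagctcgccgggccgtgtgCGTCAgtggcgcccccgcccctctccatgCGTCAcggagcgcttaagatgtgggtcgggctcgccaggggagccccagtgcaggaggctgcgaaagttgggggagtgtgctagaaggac
Nr4a2, chr2:57123954-57124253, minus strand: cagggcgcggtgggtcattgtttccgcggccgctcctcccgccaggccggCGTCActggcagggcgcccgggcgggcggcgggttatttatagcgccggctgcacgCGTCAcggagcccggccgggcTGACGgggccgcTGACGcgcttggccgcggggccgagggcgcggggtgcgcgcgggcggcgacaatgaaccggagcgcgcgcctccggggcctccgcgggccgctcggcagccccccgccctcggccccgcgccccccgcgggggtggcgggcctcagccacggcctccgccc
Nr4a3, chr4:48045055-48045354, plus strand: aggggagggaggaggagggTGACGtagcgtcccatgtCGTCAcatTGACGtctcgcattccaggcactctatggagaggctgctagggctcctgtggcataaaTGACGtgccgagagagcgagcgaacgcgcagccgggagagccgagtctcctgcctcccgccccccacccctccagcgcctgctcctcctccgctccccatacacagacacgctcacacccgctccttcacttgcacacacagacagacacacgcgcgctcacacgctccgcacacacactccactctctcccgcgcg

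The other promoters held fewer such letters. Csrnp1 had 1 or 2 cores in each of its 4 windows, and Ier3, Ier5, Zfp36 and Zfp36l1 had 0. Zfp36 held a CArG box, the element bound by SRF, as did 1.63% of all windows. The AP-1 motif TGANTCA was found in Zfp36l1 and Csrnp1 and in 7.81% of all windows, and the TATA box TATAAA, read on the gene's strand alone, in Zfp36l1 and 8.32%. The full element TGACGTCA (1.79% of windows), the NR4A response element AAAGGTCA (1.51%) and the EGR motif GCGTGGGCG (0.612%) were in none of these 8 genes' windows. Motifs other than the TATA box were read on both strands, the TGACG count includes any core inside a full element, and a match is a description of letters and not of binding.

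The 3′ ends of the transcripts are shown because 3 of the genes encode proteins that bind AU-rich elements. In the longest annotated 3′ untranslated region of each gene (GENCODE M21 transcripts on GRCm38), the heptamer TATTTAT was present in 7 of the 10 genes, against 30.3% of 11747 tested genes with such a region and 31.8% of the 6858 genes whose region was within the same range of lengths. At least 2 heptamers were present in 5 of the 10, against 10.7%. The nonamer TTATTTATT, which contains the heptamer, was present in 4 of the 10, against 8.04%, and all 3 ZFP36 family members were among those 4. Ier3 held 4 heptamers in 613 bases. The first nonamer of each of the 4 genes, and the first heptamer of Ier3, are given with 8 bases on either side, in capitals wherever that motif lies. The stretch of Ier3 holds 2 heptamers.

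Zfp36, chr7:28376953-28376977, minus strand: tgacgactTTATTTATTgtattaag
Zfp36l1, chr12:80108169-80108193, minus strand: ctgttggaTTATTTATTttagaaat
Zfp36l2, chr17:84184916-84184940, minus strand: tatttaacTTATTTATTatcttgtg
Csrnp1, chr9:119972069-119972093, minus strand: ctctgaatTTATTTATTtttttatg
Ier3, chr17:35822484-35822506, plus strand: ctaattaaTATTTATgTATTTAT

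Nr4a1, Ier2 and Ier5 held none of these heptamers. All of the values that follow are at the level of whole genes, and the amount of a messenger RNA does not separate its synthesis from its decay.

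The libraries differed in ways that the groups did not explain. In both WT-PLN samples numbered 1, 4 Y-linked genes lay between 0.0159 and 0.191 TPM, while the remaining 10 samples had 3.03 to 30.6 TPM, which goes against the stated sex of the mice, and the genotype values of the 10 genes and the list counts are therefore also given without these 2 samples. The names of the deposited files place RV R14del-PLN replicate 3 in another sequencing run than the other 11 samples. Mitochondrially encoded genes took 37.3% to 54.5% of a sample's TPM. Pln, the altered gene, was at 1559 to 1963 TPM in all 12 samples, and its level does not tell the mutant from the control sequence. The cardiomyocyte markers summed to between 28419 and 43109 TPM in every sample.

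Nr4a1, which encodes the nuclear receptor NUR77, had the widest range of the 10 genes. In LV WT-PLN it was at 3.92, 29.5 and 58.2 TPM in replicates 1, 2 and 3, and in RV WT-PLN at 1.86, 22.3 and 43.9 TPM. In R14del-PLN it was at 1.00, 1.39 and 2.61 TPM in LV and at 1.23, 1.20 and 1.22 TPM in RV. All WT-PLN samples were above all R14del-PLN samples of the same ventricle, but both replicates 1 were much closer to the mutant samples than replicates 2 and 3 were. The log2 fold change of R14del-PLN against WT-PLN was −3.0 (SE 0.90) in LV and −2.70 (SE 0.90) in RV, and neither passed the test over all genes (limma, adjusted p = 0.235 and 0.489).

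Nr4a3 (NOR1) was much less abundant, with 1.40, 3.86 and 3.87 TPM in LV WT-PLN and 0.528, 3.80 and 3.18 TPM in RV WT-PLN. Mutant samples were at 0.759, 0.595 and 0.896 TPM in LV and at 0.628, 0.763 and 0.796 TPM in RV. The groups did not overlap in LV, whereas in RV the WT-PLN replicate 1 was the lowest of the 6 samples. The log2 fold change was −1.14 (SE 0.36) in LV and −0.86 (SE 0.36) in RV (limma, adjusted p = 0.268 and 0.714).

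Nr4a2 (NURR1) was near the filter and its groups overlapped in both ventricles. It was at 0.268, 1.09 and 1.84 TPM in LV WT-PLN and at 0.212, 0.740 and 0.554 TPM in RV WT-PLN. The R14del-PLN samples were at 0.726, 0.246 and 0.196 TPM in LV and at 0.851, 0.325 and 0.281 TPM in RV, so that the highest RV sample was a mutant one. The log2 fold changes were −0.52 (SE 0.26) and −0.02 (SE 0.26), with limma adjusted p = 0.574 and 1.

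Ier5, whose product interacts with the phosphatase PP2A and the heat shock factor HSF1, was the only one of the 10 genes to pass the test in a genotype comparison, in LV, where 0.519% of all genes tested passed. In LV it was at 12.8, 16.3 and 16.7 TPM in WT-PLN and at 7.09, 6.18 and 8.71 TPM in R14del-PLN. In RV it was at 6.33, 11.5 and 8.79 TPM in WT-PLN and at 4.01, 5.59 and 4.87 TPM in R14del-PLN. In each ventricle all WT-PLN samples were above all mutant ones. Ier5 fell by 0.97 on the log2 scale in LV (SE 0.19, limma, adjusted p = 0.0466), and in RV its value was −0.74 (SE 0.19, adjusted p = 0.207).

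The Ier5 call in LV was close to the threshold. It was kept in 16 of 25 alternatives. It was lost with a pseudocount of 0.1 (adjusted p = 0.0508), where Zfp36 was the 1 gene called instead, and with no filter (0.144). It was also lost without LV WT-PLN replicate 2 (0.190), LV WT-PLN replicate 3 (0.201), RV WT-PLN replicate 3 (0.0694), LV R14del-PLN replicate 1 (0.176), 2 (0.230) or 3 (0.0512), or RV R14del-PLN replicate 3 (0.0766). Its log2 fold change lay between −1.08 and −0.86 over the 12 fits that each left out 1 sample.

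Ier2, a nuclear transcriptional regulator, followed the same order of samples as Nr4a1 in WT-PLN. It was at 4.16, 8.96 and 28.4 TPM in LV WT-PLN and at 3.40, 6.45 and 19.5 TPM in RV WT-PLN. The R14del-PLN samples were at 3.01, 3.36 and 4.89 TPM in LV and at 2.92, 2.88 and 2.97 TPM in RV. LV WT-PLN replicate 1 was below the highest LV mutant sample, and in RV the genotypes did not overlap. The log2 fold changes were −1.29 (SE 0.56) and −1.16 (SE 0.56), with limma adjusted p = 0.468 and 0.823.

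Ier3 (IEX-1), a stress-induced regulator of cell survival, was the most abundant of the 10 genes, with a mean of 25.6 TPM over the 12 samples. It was at 25.6, 30.4 and 50.5 TPM in LV WT-PLN and at 20.2, 23.1 and 37.4 TPM in RV WT-PLN. The mutant samples were at 20.4, 21.6 and 24.5 TPM in LV and at 17.2, 21.2 and 15.0 TPM in RV. The genotypes did not overlap in LV, and in RV the WT-PLN replicate 1 fell within the mutant range. The log2 fold changes were −0.60 (SE 0.25) and −0.54 (SE 0.25), with limma adjusted p = 0.450 and 0.803.

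Zfp36, which encodes tristetraprolin, had groups that did not overlap in either ventricle. It was at 10.3, 15.0 and 27.7 TPM in LV WT-PLN and at 9.53, 13.4 and 23.6 TPM in RV WT-PLN. The 6 mutant samples were lower, at 4.23, 3.79 and 6.24 TPM in LV and at 4.22, 4.68 and 5.6 TPM in RV. The log2 fold change was −1.61 (SE 0.33) in LV, where the limma adjusted p of 0.0517 lay just outside the threshold, and −1.42 (SE 0.33) in RV (adjusted p = 0.122). Zfp36 was called in LV in 14 of 25 alternatives, with adjusted p between 0.00207 and 0.230. Of the 12 fits that each left out 1 sample, 3 called it in LV. These were the fits without LV WT-PLN replicate 1, RV WT-PLN replicate 1 or RV WT-PLN replicate 3.

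The paralogs of Zfp36 differed less between the genotypes. Zfp36l1 was at 17.8, 27.3 and 32.8 TPM in LV WT-PLN and at 15.9, 22.3 and 19.6 TPM in LV R14del-PLN. In RV it was at 14.8, 24.0 and 30.4 TPM in WT-PLN and at 15.1, 21.0 and 14.9 TPM in R14del-PLN. The genotypes overlapped in both ventricles, with WT-PLN replicate 1 inside the mutant range in LV and just below it in RV, and the log2 fold change was −0.38 (SE 0.26) in each (limma, adjusted p = 0.707 and 0.997).

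Zfp36l2 was at 6.67, 7.27 and 11.2 TPM in LV WT-PLN and at 6.36, 7.38 and 6.84 TPM in LV R14del-PLN. In RV it was at 5.68, 5.37 and 8.31 TPM in WT-PLN and at 7.53, 6.63 and 5.44 TPM in R14del-PLN. In each ventricle WT-PLN replicate 3 was the highest sample and the others were mixed. The log2 fold changes were −0.22 (SE 0.19) in LV and 0.03 (SE 0.19) in RV (limma, adjusted p = 0.782 and 1).

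Csrnp1, a cysteine- and serine-rich nuclear protein, had groups that did not overlap in either ventricle. It was at 5.04, 10.6 and 13.6 TPM in LV WT-PLN and at 6.50, 7.90 and 8.61 TPM in RV WT-PLN. In R14del-PLN it was at 3.61, 2.03 and 4.48 TPM in LV and at 3.72, 2.87 and 2.88 TPM in RV. The log2 fold changes were −1.25 (SE 0.28) and −1.06 (SE 0.28), with limma adjusted p = 0.0804 and 0.221. Csrnp1 overlaps Cx3cr1 on the same strand, and Cx3cr1 was at 0.0759 to 0.613 TPM.

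**Figure D1:**
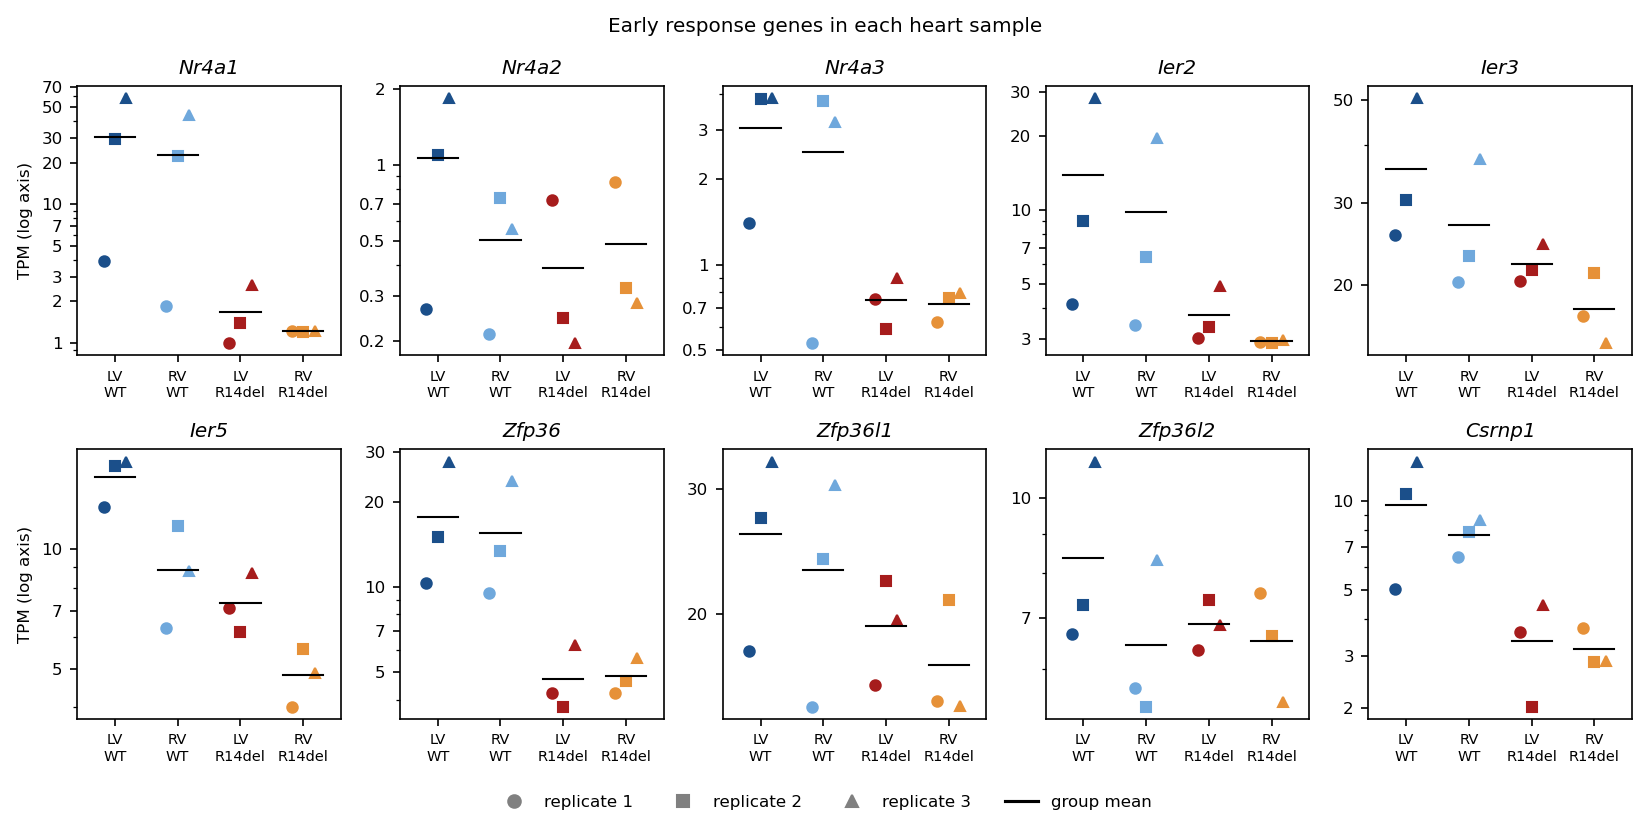
TPM of each of the 10 early response genes, on a log axis with its own range in each panel, in the 12 samples, by ventricle and genotype; the symbol gives the replicate number and the line the group mean. Replicate 1 was the lowest WT-PLN sample for all 10 genes in LV and for 9 in RV, as it was for 70.0% and 49.9% of all genes tested.

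Of the 20 genotype values of the 10 genes, 1 passed the test, although nearly all lay below 0. In LV, 10 of 10 had a log2 fold change below 0, as did 71.7% of all genes tested, and in RV 9 of 10, as did 50.9%. The 10 and the 9 were also found under each of the 3 other scalings tried. Their median log2 fold change was −1.05 in LV and −0.80 in RV, where the median over all genes tested was −0.09 and −0.003. With a call defined as a change of at least 1.5-fold at a limma adjusted p of 0.05 or less, 1 of the 10 was called in LV, where 0.519% of all genes were called, and 0 of 10 in RV, where 0.271% were. At an unadjusted p of at most 0.05, 7 of the 10 were lower in LV (7.85% of all genes) and 5 of the 10 in RV (3.4%). Genotype ranges did not overlap, with R14del-PLN below, for 6 genes in LV (8.47% of all genes) and for 5 in RV (5.79%).

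Leaving out both WT-PLN replicate 1 samples raised the number called from 1 to 5 in LV and from 0 to 5 in RV, the same 5 genes in each ventricle. These were Nr4a1, Nr4a3, Ier5, Zfp36 and Csrnp1, and the share of all genes called rose as well, to 1.84% in LV and 0.703% in RV. The samples left out were the lowest of WT-PLN for 10 of the 10 genes in LV and 9 in RV. For those genes the omission by itself raises the WT-PLN mean and so lowers the fold change. The log2 fold change of Nr4a1 became −4.04 in LV and −3.87 in RV (SE 0.33 in each; limma, adjusted p = 5.4e-05 and 7.48e-05). Without those samples the log2 fold changes in LV and RV were −1.48 and −1.38 for Nr4a3, −1.92 and −1.70 for Zfp36, −1.62 and −1.16 for Csrnp1, and −1.08 and −0.93 for Ier5. Of the other genes, Ier2 came nearest to a call (−1.87 in LV, adjusted p = 0.0550, and −1.66 in RV, adjusted p = 0.165). The remaining 4 were not called either, with −0.83 and −0.17 for Nr4a2, −0.80 and −0.71 for Ier3, −0.62 and −0.66 for Zfp36l1, and −0.35 and −0.04 for Zfp36l2.

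In terms of ranges, WT-PLN replicates 2 and 3 were both above all 3 R14del-PLN samples for 9 of the 10 genes in LV, all but Zfp36l2, and for 8 in RV, all but Nr4a2 and Zfp36l2. Over all genes tested this was so for 24.9% in LV and 13.2% in RV. WT-PLN replicate 1 was at or below the highest R14del-PLN sample for 4 genes in LV (Nr4a2, Ier2, Zfp36l1 and Zfp36l2) and for 5 in RV (Nr4a2, Nr4a3, Ier3, Zfp36l1 and Zfp36l2). The part of the Y-linked difference in these values was not tested, and the labels do not say whether the LV and RV samples of 1 number came from 1 heart. In WT-PLN, deviations from the group means were correlated over genes between LV and RV of 1 number (r = 0.657, 0.321 and 0.457). The same genes being called in both ventricles is therefore not shown to be independent evidence.

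**Figure D2:**
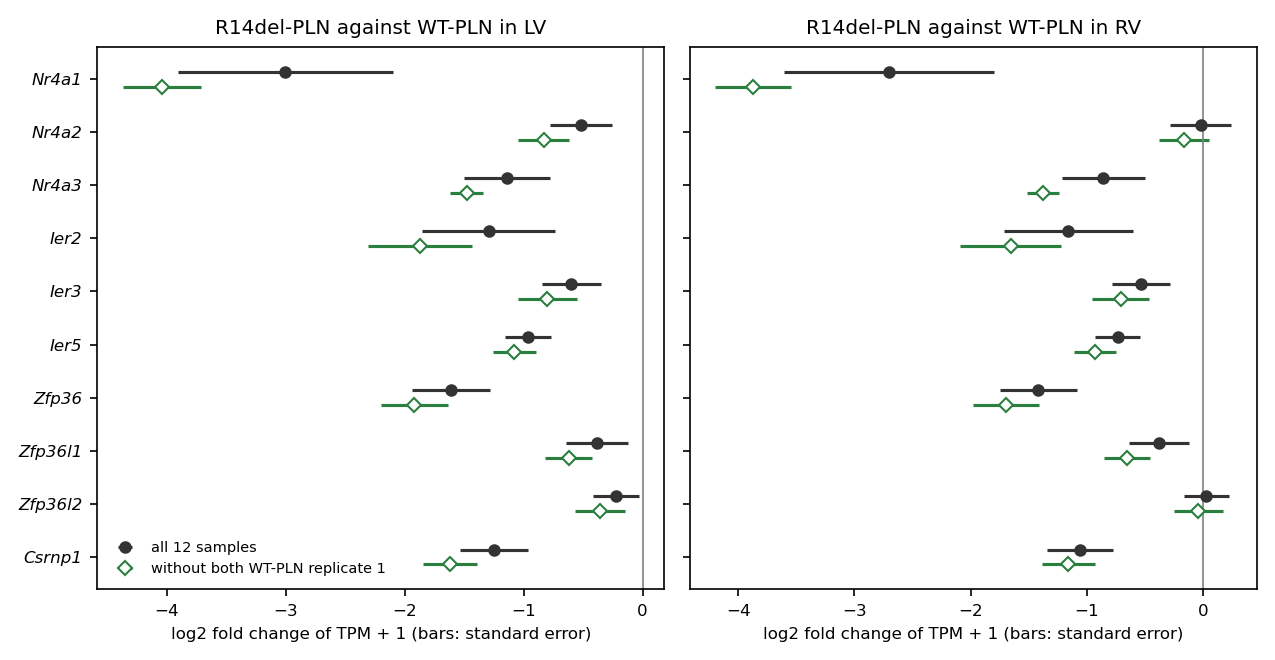
Log2 fold change of TPM + 1 in R14del-PLN against WT-PLN for each gene, in LV (left) and RV (right), from limma with all 12 samples (filled circles) and without both WT-PLN replicate 1 samples (open diamonds); bars are standard errors. Without those samples the values of Nr4a1 moved from −3.0 to −4.04 in LV and from −2.70 to −3.87 in RV, and its standard error fell from 0.90 to 0.33.

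The spread between replicates, pooled over the 4 groups, set these 10 genes apart from most of the genes tested, as a description with no test. The pooled standard deviation within groups of log2(TPM + 1) was 1.41 for Nr4a1, 0.86 for Ier2, 0.54 for Nr4a3 and 0.49 for Zfp36, against a median of 0.19 over all genes tested. It was smallest for Zfp36l2 and Ier5, at 0.26 each. All 10 genes lay above the median of all genes, and 8 of them lay in the top 10%. This came from the WT-PLN groups. Within WT-PLN the percentile among all genes tested ran from 89.4 for Ier5 to 99.8 for Nr4a1. Within R14del-PLN it ran from 7.1 for Nr4a3 to 89.6 for Csrnp1. Without both WT-PLN replicate 1 samples the median pooled standard deviation over the 10 genes was 0.28 in place of 0.40. The ratio of the highest to the lowest of the 3 samples had a median over the 10 genes of 2.69 in LV WT-PLN and 2.26 in RV WT-PLN, against 1.57 in LV R14del-PLN and 1.36 in RV R14del-PLN. It reached 23.6 in RV WT-PLN and 3.71 at most in the mutant groups.

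The spread was larger in WT-PLN than in R14del-PLN for 10 of 10 genes, where 37% of all genes tested had the larger spread in WT-PLN. By the ratio of the WT-PLN to the R14del-PLN standard deviation, the contrast was widest for Nr4a3, with standard deviations of 0.76 in WT-PLN and 0.10 in R14del-PLN, followed by Nr4a1 with 1.97 and 0.31 and Ier2 with 1.20 and 0.21. It rested in part on the WT-PLN replicate 1 samples: without them the WT-PLN spread was the larger for 5 of 10 genes, and its median over the 10 genes was 0.31 in place of 0.48, beside 0.23 in R14del-PLN. Within WT-PLN, replicate 3 was the highest sample for all 10 genes in LV and for 7 in RV. The share of all genes with replicate 3 highest was not counted.

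**Figure D3:**
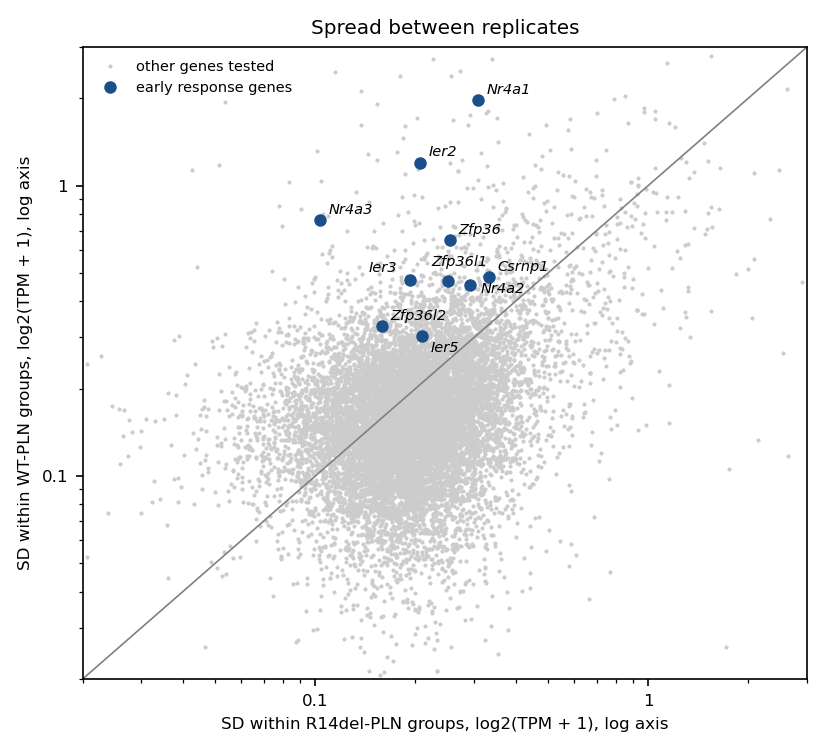
Standard deviation of log2(TPM + 1) between replicates within the WT-PLN groups (vertical) against that within the R14del-PLN groups (horizontal), both on log axes, for the 10 early response genes (labelled) and the other genes tested (grey); 33 genes lie outside the axes and the line marks equal spread. All 10 genes lie above the line, Nr4a1 at 1.97 and 0.31.

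Between the ventricles, the IER genes were lower in RV than in LV of the same number in all 6 pairs. For Ier5 the RV minus LV difference in log2(TPM + 1) was −0.91, −0.47 and −0.85 in the WT-PLN pairs 1, 2 and 3 and −0.69, −0.12 and −0.73 in the R14del-PLN pairs. Its mean was −0.63 ± 0.29 (SD over 6 pairs), with p = 0.03125 in an exact two-sided sign-flip permutation test, the smallest value that 6 pairs allow. The RV and LV ranges of Ier5 did not overlap in either genotype, RV being lower, as for 25.2% of all genes in WT-PLN and 8.72% in R14del-PLN. The median RV minus LV difference over all genes was also below 0 in the 3 WT-PLN pairs (−0.11, −0.20 and −0.19) and in R14del-PLN pair 3 (−0.38), and above 0 in R14del-PLN pairs 1 and 2 (0.06 and 0.07).

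Ier3 had a mean difference of −0.34 ± 0.22 and Ier2 of −0.32 ± 0.21, also below 0 in 6 of 6 pairs. Zfp36l1 was below 0 in 6 of 6 pairs with a mean of −0.18 ± 0.12. All 3 had p = 0.03125 in the exact permutation test, and 12.7% of all genes tested were below 0 in all 6 pairs. Measured against the median of all genes in each pair, Ier5 (mean −0.50), Ier3 (−0.22) and Ier2 (−0.20) remained below it in 6 of 6 pairs (exact permutation p = 0.03125), whereas Zfp36l1 was below it in 3 of 6 (mean −0.05, exact permutation p = 0.25). The share of all genes below the median in all 6 pairs was not counted. Under the other pseudocounts and scalings, the exact permutation p rose above 0.05 in 3 cases among the genes below 0 in every pair. These p-values are for single genes and 10 genes were examined.

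The other 6 genes were not below 0 in every pair. Nr4a1 was lower in RV in 5 of 6 pairs, with a mean of −0.37 ± 0.35 (exact permutation p = 0.09375). Nr4a3, Zfp36 and Zfp36l2 were lower in 5 of 6 pairs each, and Nr4a2 and Csrnp1 in 3 of 6. The sign of the mean of Zfp36 (−0.06) turned under each of the 3 other scalings tried, and that of Csrnp1 (−0.13) with mitochondrial genes removed.

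**Figure D4:**
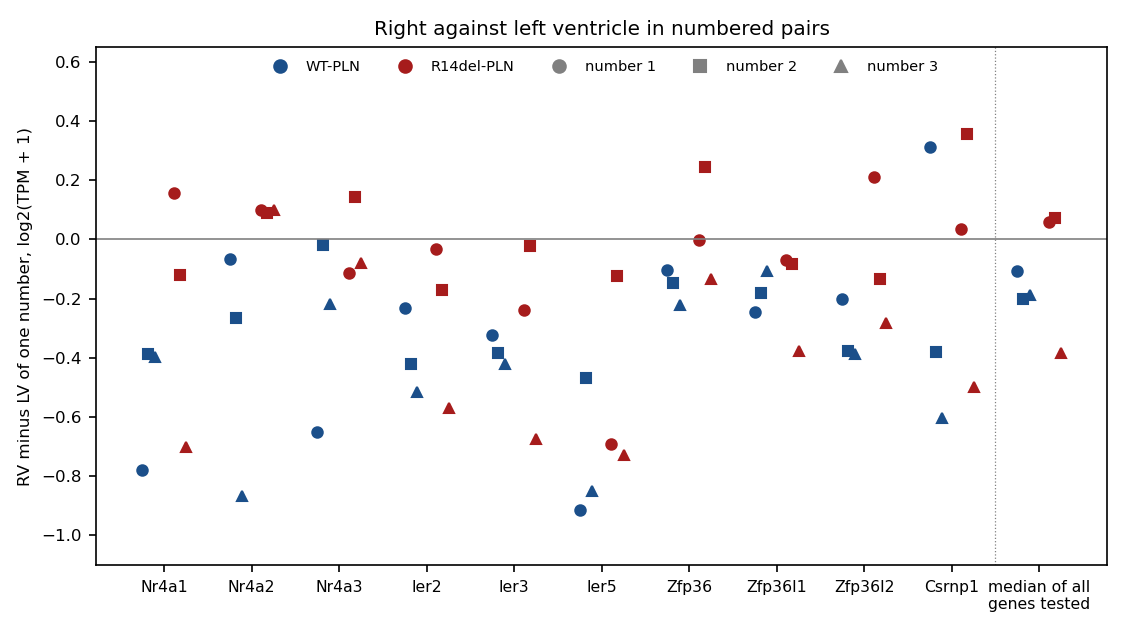
RV minus LV difference in log2(TPM + 1) for the pairs of 1 number, in WT-PLN (blue) and R14del-PLN (red), for each gene and for the median over all genes tested; the symbol gives the number. Ier2, Ier3, Ier5 and Zfp36l1 lie below 0 in all 6 pairs, and Nr4a2 lies below 0 in the 3 WT-PLN pairs and above it in the 3 R14del-PLN pairs.

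In the test over all genes, 0 of the 10 were called between RV and LV in WT-PLN or in R14del-PLN, where 0% of all genes were called and 14.5% and 6.57% had an unadjusted limma p of at most 0.05. Ier5 had an unadjusted p of at most 0.05 in both genotypes and was the only one of the 10 to do so in either; its log2 fold change was −0.74 (SE 0.19, limma, adjusted p = 0.217) in WT-PLN and −0.51 (SE 0.19, adjusted p = 0.737) in R14del-PLN. The interaction of genotype and ventricle was called for 0 of the 10 genes and 0% of all genes, with 1.01% of all genes at an unadjusted p of at most 0.05 and none of the 10. The smallest of the 10 interaction p-values was 0.202, for Nr4a2 (limma, adjusted p = 1.00).

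Other immediate early genes and related genes were examined as lists, chosen with earlier results of these data known. Of 50 other immediate early genes, 47 were tested. In LV 5 of them fell, as did 0.423% of all genes, 0 rose, and at an unadjusted limma p of at most 0.05 32 were lower (7.85% of all genes) and 3 higher. In RV 4 fell, as did 0.2% of all genes, 0 rose, and at that level 23 were lower (3.4% of all genes) and 4 higher. Their median log2 fold change was −0.80 in LV and −0.58 in RV. Without both WT-PLN replicate 1 samples, an alternative chosen after seeing the data, 27 of the 47 fell in LV and 13 in RV, 0 rose, and the medians were −0.98 and −0.77, while 1.84% and 0.703% of all genes were called.

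Those that fell in both ventricles were Ctgf, which encodes the matricellular protein CCN2 (log2 fold changes −1.95 in LV and −2.62 in RV; limma, adjusted p = 0.0476 and 0.0102), Per1, a repressor of the circadian clock (−1.23 and −1.05; 0.00440 and 0.0168), and Nfkbia, the inhibitor of NF-κB (−0.99 and −0.98; 0.0293 and 0.0451). Klf2, a shear-responsive transcription factor of endothelial cells, fell by 1.42 in LV (adjusted p = 0.0335), and Rhob, a small GTPase, fell by 0.66 in LV (0.0315). Rgs2, which limits Gq signalling, fell by 1.5 in RV (0.0180). Klf2 and Rhob in RV (−1.36 and −0.58) and Rgs2 in LV (−0.80) were not called. Without both WT-PLN replicate 1 samples these 6 genes were called in both ventricles except Rhob in RV (−0.62, limma, adjusted p = 0.0660). Rhob is named because it was the fifth of 5 genes called in LV, after its value was seen.

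The upstream genes and the ZFP36 partners showed 0 calls. Of 30 kinases and transcription factors that act on early response promoters, 0 were called and 0 had an unadjusted limma p of at most 0.05 in either genotype comparison, with medians of −0.09 and 0.04. The smallest p belonged to Mkl2 (−0.31 in LV, adjusted p = 0.607) and Mkl1 (−0.24 in RV, adjusted p = 0.895), coactivators of SRF. Of 25 deadenylation and decapping partners of the ZFP36 proteins, 0 were called, with 1 and 0 at an unadjusted p of at most 0.05. Without both WT-PLN replicate 1 samples 0 genes of either list were called, and at an unadjusted p of at most 0.05 2 and 2 of the 30 were lower, Mkl2 (−0.43 and −0.36) in both ventricles, and 1 and 0 of the 25. The poly(A)-binding protein gene Pabpc1 was the lowest of these in p in LV (−0.32, adjusted p = 0.486).

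Of 20 messenger RNAs with AU-rich elements that ZFP36 proteins are known to bind, 10 were tested. The median of this list was −0.70 in LV and −0.40 in RV. At an unadjusted limma p of at most 0.05, 5 and 1 of its 10 tested genes were lower, as were 7.85% and 3.4% of all genes. Without both WT-PLN replicate 1 samples the medians became −0.94 and −0.62, and 9 and 5 genes were lower at that level. The share of all genes at that level was not counted for this fit. There 4 and 1 of the 10 were called lower, where 1.84% and 0.703% of all genes were called. Myc and Nfkbiz are also on the list of other immediate early genes. Among 3 tested relatives of the IER and CSRNP genes, and among the 3 retinoid X receptors that pair with NR4A1 and NR4A2, 0 were called and 0 had an unadjusted limma p of at most 0.05 in either genotype comparison, with or without those samples.

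The genes outside the 10 whose levels over the 12 samples were most like the mean of the 10 (each gene's log2 values centred and scaled first) were Btg2, Nfkbiz, Nuak2, Mob3a and Plk3, with Pearson r from 0.972 to 0.979. The 12 samples include pairs of 1 number and 2 genotypes that differ, so that r describes these libraries and is given without a test. Among the 10 genes, r with their own mean, of which each is a part, ran from 0.70 for Zfp36l2 and 0.75 for Nr4a2 to 0.967 for Nr4a1. Of the 12516 other genes tested, 168 had an r of at least 0.9.

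Btg2, an antiproliferative adaptor of the deadenylase complex, had the highest r. It was at 9.76, 23.8 and 51.8 TPM in LV WT-PLN and at 6.19, 17.1 and 39.3 TPM in RV WT-PLN. In R14del-PLN it was between 4.06 and 8.71 TPM in all 6 samples. The WT-PLN samples stood in the same order as for Nr4a1 and Ier2. Btg2 was picked for its likeness over these same 12 samples, so this order and its lower level in R14del-PLN are not a separate result. Its log2 fold change was −1.68 in LV and −1.59 in RV (limma, adjusted p = 0.294 and 0.547). Without both WT-PLN replicate 1 samples it was −2.26 and −2.22 (limma, adjusted p = 0.00648 and 0.0104), from the same values that picked the gene.

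Markers of other cell types were summed in each sample, since in whole ventricle fewer cells of a type and less RNA per cell cannot be told apart. Of the 8 lists, 0 genes were called in either genotype comparison. At an unadjusted limma p of at most 0.05, in either direction, the neutrophil markers had 2 of 3 tested genes in LV and 0 in RV. The atrial cardiomyocyte and fibroblast markers had 1 each in LV and 0 in RV. The endothelial markers had 1 of 6 in each ventricle. Of all genes tested, 7.85% in LV and 3.4% in RV were lower at that level. The share of all genes in either direction, which is the one these marker counts need beside them, is not given here. The red cell markers had 4 of 5 genes at that level in LV and 3 of 5 in RV. Their sum ran from 2087 to 2316 TPM in LV WT-PLN and from 1093 to 2142 in LV R14del-PLN, and from 1461 to 1736 in RV WT-PLN and from 956 to 1368 in RV R14del-PLN, so that the genotypes overlapped in LV and not in RV. WT-PLN replicate 1 had the lowest WT-PLN sum for 7 of the 8 lists in LV, all but the red cell list (2316 TPM, the highest), and for 6 of 8 in RV, all but the red cell and atrial cardiomyocyte lists (1729 and 101 TPM). Over all genes tested, replicate 1 was the lowest WT-PLN sample for 70.0% in LV and 49.9% in RV.

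The neutrophil markers, of which 3 of 6 reached the filter, summed to 1.15 to 15.5 TPM in LV WT-PLN and to 0.883 to 1.53 in LV R14del-PLN, and the lowest LV WT-PLN sum was that of replicate 1. In RV they summed to 1.18 to 5.27 TPM in WT-PLN and to 1.16 to 1.61 in R14del-PLN. The endothelial, fibroblast, smooth muscle and pericyte, macrophage, cardiomyocyte and atrial cardiomyocyte sums overlapped between the genotypes in both ventricles. The atrial cardiomyocyte sum varied widely between replicates, from 209 to 1312 TPM in LV WT-PLN and from 87.6 to 893 in RV WT-PLN. In R14del-PLN it ran from 145 to 319 TPM in LV and from 46.1 to 532 in RV. No marker was at 0 in all samples, and the part of these cell types in the early response values was not tested.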

How the data were processed

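RNA libraries were polyA selected and stranded, from total RNA of flash-frozen hearts, and per the study's methods reads were mapped to GRCm38 with CLC Genomics Workbench. The authors deposited 1 table of TPM per gene for each of the 12 samples; each sums to 1000000. The program and annotation behind the TPM are not given in the sources used here, and sequencing depth is unknown, so no counting interval is given. The members and lists were chosen with earlier results of these data known.

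Log2(TPM + 1) was fitted for the 12526 genes whose mean reached 0.5 TPM, with limma 3.58.1 (R 4.3.3, eBayes with trend, 4 group means, 8 residual degrees of freedom) and p-values were adjusted by Benjamini-Hochberg over all of them. A call needed an adjusted p of at most 0.05 and, except for the interaction, a fold of at least 1.5, the study's thresholds. A fold change on this scale understates the change of low genes. The code was tested on simulated data. Where nothing says that samples are separate mice, p-values measure only the spread between samples. RV and LV of 1 number were compared by an exact sign-flip permutation test over the 6 pairs. Ranges of 3 against 3 allow no exact p below 0.1.

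Named genes were the 10 members, Pln, the called genes of each list (at most 4 per comparison by fold change, or where none was called those of smallest p) and the 5 genes most like the members. A result for 1 list gene is not reported here. Alternatives covered the pseudocount, the filter, the scaling, the samples, the variance trend and the pairing.

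As a check of pairing, deviations from group means were correlated over genes between samples of 1 number. For LV and RV r was 0.657, 0.321 and 0.457 in WT-PLN (paired by the rule that each exceed 0.1) and 0.389, 0.230 and 0.0542 in R14del-PLN (not each above it). With genotype and number as a fixed replicate block, 0 members and 12 of all genes were called between RV and LV in WT-PLN.

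Zfp36, Zfp36l1, Zfp36l2 and Csrnp1 overlap genes on the opposite strand in the annotation. A BLAST search of transcripts found no near-identical copy of a member elsewhere. Its 1 match was Gm26669, which overlaps Zfp36l1 on the opposite strand.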

Additional observations from a re-analysis of the deposited data

Results flagged for a closer look

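The RV minus LV difference of Nr4a2 was below 0 in all 3 WT-PLN pairs (−0.07, −0.26 and −0.87) and above 0 in all 3 R14del-PLN pairs (0.10, 0.09 and 0.10), which drew attention to it. The interaction of genotype and ventricle was 0.50 (SE 0.37) on the log2 scale and did not pass the test (limma, adjusted p = 1.00). Nr4a2 averaged 0.61 TPM over the 12 samples, close to the filter.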

How the results depend on the processing

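In LV the number of the 10 genes called was 1. It was 2 with a pseudocount of 0.5, with a mean filter of 1 or 5 TPM, with the 6 compared samples alone, with quantile normalization, upper quartile scaling or mitochondrial genes removed, 0 with no filter, where 22948 genes were tested, and 5 without both WT-PLN replicate 1 samples. Leaving out 1 sample at a time gave 0 to 4. Of all genes, 65 were called at first, 104, 98 and 95 under the 3 scalings, 49 to 69 with the other pseudocount, filters and samples named, 22 with no filter, 231 without both replicate 1 samples and 19 to 153 with 1 sample left out. In RV the number was 0. It was 1 with the 6 samples alone (Csrnp1), with quantile normalization or with upper quartile scaling (Zfp36 in both), 5 without both WT-PLN replicate 1 samples, and 0 to 2 when 1 sample at a time was left out, where 34 of all genes became 27, 85, 91, 88 and 14 to 48. Genes with a larger WT-PLN spread fell from 10 to 5 without those samples. The cause was not tested.

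By the rule that each r exceed 0.1, the replicate numbers did not pair the genotypes (same-number r from −0.02 to 0.156 in LV and from 0.061 to 0.219 in RV). A weaker shared effect of the number was not tested. With the number as a fixed replicate block, 2 genes were called in LV and 1 in RV (Ier5 and Zfp36, and Zfp36), and 119 and 62 of all genes in place of 65 and 34. With genotype and number as a random replicate block, 2 were called in LV and 0 in RV. A fixed block of genotype and number, added after seeing the data, called 0 of the 10 between the ventricles, and 12 of all genes in WT-PLN and 0 in R14del-PLN.

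Some directions turned. In RV, Nr4a2 ran from −0.189 to 0.0937 and Zfp36l2 from −0.0751 to 0.199 when 1 sample was left out, and Zfp36l2 was −0.0409 without both WT-PLN replicate 1 samples. The mean RV minus LV of Zfp36 was 0.0708 under quantile normalization, 0.0576 under upper quartile scaling and 0.0815 with mitochondrial genes removed, and there that of Csrnp1 was 0.0042. Of the RV against LV fold changes by group that are not given above, 34 of 462 turned, none of them called, to at most 0.644 (Nr4a1 in WT-PLN without RV WT-PLN replicate 1, from −0.52). With 5 pairs the exact permutation test cannot reach 0.05, so no count is given for pairs left out.

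Nr4a2 was not tested at a filter of 1 TPM, nor Nr4a2 and Nr4a3 at 5 TPM. With 3 samples a group and unknown depth, a gene that missed the threshold is not shown to be alike in the genotypes.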
